A study of Raphanus sativus with 12 samples.

Results

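SVP (gene Rsa10028999) and SVP-like (gene Rsa10010012) are the 2 genes of the deposited radish annotation described as MADS-box protein SVP and MADS-box protein SVP-like. They were chosen by their gene identifiers, by a rule that used no measured value, although earlier results of these data were known. They make up 2 of the 30161 genes in the expression table. Both were high enough to be tested. The study asked how m6A, a methylated adenine in messenger RNA, takes part in bolting and flowering of radish (Raphanus sativus). It used leaf blades of the diploid radish material XHT, taken 120 days after sowing in reproductive growth and 30 days after sowing in vegetative growth. All plants, at both ages, had days of 16 hours of light at 25 °C and dark nights at 23 °C, and received no treatment. The age and the stage of growth therefore changed together and cannot be told apart, and each library held mixed leaves of 3 plants of 1 material.

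For each age there were 3 input libraries (plain RNA-seq) and 3 immunoprecipitated libraries enriched for RNA with m6A, described as independent biological replicates. Transcript levels below are FPKM of the input libraries. FPKM corrects for transcript length and library size, so levels of different genes can be set side by side. The libraries summed to 636795 to 694436 FPKM, and read depth is unknown. Among the input libraries, replicate 3 of the 30-day plants stood apart: on the log2 scale it correlated at r = 0.895 and 0.835 with the other 30-day libraries, which correlated at 0.944, while the 120-day libraries correlated at 0.971 to 0.985. The calls on SVP and SVP-like, their ratio, and the counts of the marker lists and of the list of partners and targets are given with and without that library.

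SVP, for Short Vegetative Phase, is a MADS-box transcription factor that delays flowering in Arabidopsis. In that species SVP pairs with FLC, the repressor that prolonged cold silences, and together they hold down FT in the leaf and SOC1 in the leaf and shoot tip. FT is a protein that moves to the tip and triggers flowering there, and SOC1 is a MADS-box gene that promotes flowering. Arabidopsis SVP also acts with FLM in the response to temperature, lowers gibberellin synthesis and takes part in drought responses through abscisic acid. These roles are background from Arabidopsis and were not measured here.

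The mean level of SVP transcript was close in leaves of both ages and did not pass the test, while that of SVP-like was higher in the older leaves by a call that stood close to the threshold. A difference between the genes in their change with age was not shown. SVP averaged 39.7 ± 3.45 FPKM at 120 days and 37.6 ± 6.97 at 30 days, and SVP-like averaged 45.0 ± 3.07 FPKM at 120 days and 30.4 ± 7.12 at 30 days (SD, n = 3 each). Together they had 84.7 ± 1.06 FPKM at 120 days against 68.1 ± 4.92 at 30 days. In the same leaves the FLC copies were far lower and the SOC1 copies far higher at 120 days.

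SVP lies on R01 from 10268181 to 10271609, on the plus strand, and its gene spans 3429 bases in the coordinates of the deposited table. Its level was 37.1, 43.61 and 38.36 FPKM in 120-day replicates 1, 2 and 3, and 35.26, 45.48 and 32.17 FPKM in 30-day replicates 1, 2 and 3. The highest and the lowest of the 6 values were both 30-day libraries, so the ages overlapped fully. On the log2(FPKM + 1) scale the fold of 120 over 30 days was 0.09 (SE 0.17, 95% interval −0.33 to 0.50; limma, p adjusted over the 21435 genes tested = 0.696). The interval leaves room for a moderate change in either direction. Leaving out 30-day replicate 3 turned the log2 fold to −0.016. In the authors' deposited table the fold of SVP was 1.05 with a q-value of 0.28, and it was not marked as significant.

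SVP-like lies on R04 from 33172264 to 33175958, on the minus strand, and spans 3695 bases. Its level was 48.04, 41.9 and 45.15 FPKM in 120-day replicates 1, 2 and 3, and 27.12, 25.55 and 38.59 FPKM in 30-day replicates 1, 2 and 3. Every 120-day value lay above every 30-day value, and the gap was smallest between 120-day replicate 2, at 41.9 FPKM, and 30-day replicate 3, at 38.59 FPKM. Of the genes tested, 11.6% were likewise higher in every 120-day library than in any 30-day library. The log2 fold of SVP-like was 0.57 (SE 0.19, 95% interval 0.12 to 1.02; limma adjusted p = 0.0466), a fold of 1.48 between the mean FPKM. It passed the threshold of 0.05 as 1 of the 2 genes, where 8.4% of the genes tested were called higher and 37.6% lower. The call stood close to the threshold: it was lost without the filter on low FPKM (limma adjusted p = 0.0551), without the variance trend (0.0506), and when any library other than 30-day replicate 3 was left out (0.0937 to 0.132). Without 30-day replicate 3 the log2 fold was 0.75 (limma adjusted p = 0.00541), where 10.2% of the genes tested were called higher and 42.8% lower. In the authors' deposited table its fold was 1.48 with a q-value of 0.01, and it was not marked as significant.

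**Figure D1:**
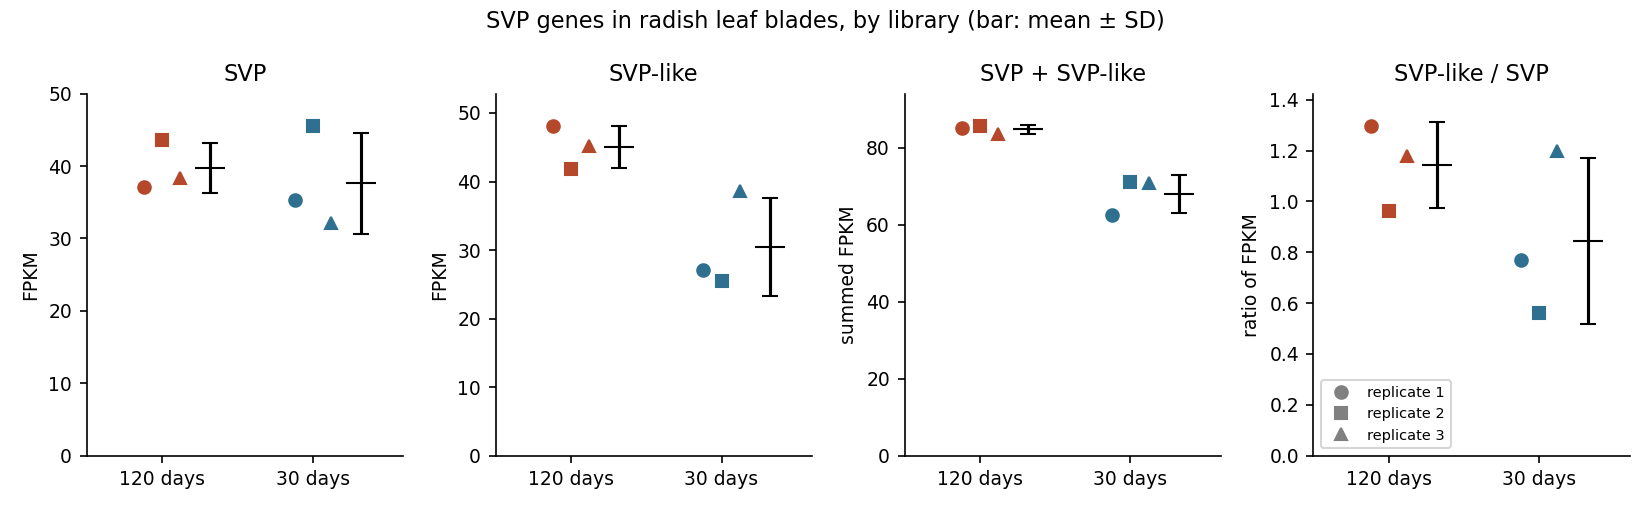
Level of SVP, SVP-like and their sum in FPKM, and the ratio of SVP-like to SVP, in the 3 libraries of 120-day leaves (red) and of 30-day leaves (blue); marker shapes are replicates and black bars are mean ± SD. SVP overlaps between the ages, SVP-like and the sum do not, and the ratio of 30-day replicate 3 (1.20) lies within the 120-day range.

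The scale of the comparison matters for both genes, because most transcripts read lower at 120 days. The median gene tested had a log2 fold of −0.446 at 120 days relative to 30 days. Of these genes, 77.6% had a lower log2 fold than SVP and 87.8% had a lower one than SVP-like. Once each library was centred on its own median gene, the log2 fold of SVP was 0.52 (limma adjusted p = 0.0948) and that of SVP-like was 1.01 (limma adjusted p = 0.0141). With quantile normalization the log2 folds were 0.43 for SVP (limma adjusted p = 0.133) and 0.92 for SVP-like (limma adjusted p = 0.0176). SVP passed the threshold under none of the 3 scalings, and SVP-like passed under each of them. After centring, 13.8% of all genes tested were called higher and 10.2% lower. The shares with quantile normalization were 12.4% higher and 13.1% lower.

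Many mesophyll marker genes of the leaf moved against this shift of the median and read higher at 120 days. The 47 matched mesophyll genes (small chain of ribulose bisphosphate carboxylase, chlorophyll a-b binding proteins and subunits of photosystem I) summed to 82933 to 107831 FPKM at 120 days and to 14215 to 21985 FPKM at 30 days. Of the 43 tested, 27 were higher and 2 lower at 120 days, where 8.4% of all genes tested were called higher and 37.6% lower. Without 30-day replicate 3, 40 were higher and 2 lower. In that library the 24 chlorophyll a-b binding genes of the 47 summed to 803 FPKM, against 3560 and 4534 FPKM in 30-day replicates 1 and 2. With quantile normalization 16 of the 43 were higher and 0 lower. The part of these genes in the levels of SVP and SVP-like was not tested. Phloem markers, of the tissue in which FT is made in Arabidopsis, summed to 138 to 204 FPKM at 120 days and to 183 to 395 FPKM at 30 days over 27 matched genes. Of the 14 tested, 1 was higher and 5 were lower, a share of lower calls close to the 37.6% of all genes tested. After median centring 1 was higher and 1 lower, and without 30-day replicate 3, 1 was higher and 6 were lower. Among them, the 3 copies of the sucrose transporter SUC2 summed to 75.23, 48.17 and 50.44 FPKM in 120-day replicates 1, 2 and 3, and to 241.59, 236.68 and 85.45 FPKM in 30-day replicates 1, 2 and 3. As deposited, Rsa10040167 and Rsa10000483 were called lower (limma adjusted p = 0.0249 and 0.0191) and Rsa10029222 was not (0.0569). Without 30-day replicate 3 all 3 copies were called lower (limma adjusted p = 0.00165 to 0.00401), as were 42.8% of all genes tested. No SUC2 copy was called after median centring (limma adjusted p = 0.0841 to 0.179). The 1 marker called higher, PHLOEM PROTEIN 2-LIKE A10-like (Rsa10006824), averaged 8.13 FPKM at 120 days and 1.49 FPKM at 30 days. The part of the phloem markers in the results below was not tested either. Markers of flowers (AGAMOUS, APETALA3, PISTILLATA and SEPALLATA, 11 matched genes) did not exceed 3.24 FPKM in any library, and none of them was high enough to test. No description matched the shoot meristem markers. In such bulk samples, fewer cells of a type and less RNA per cell cannot be told apart.

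**Figure D2:**
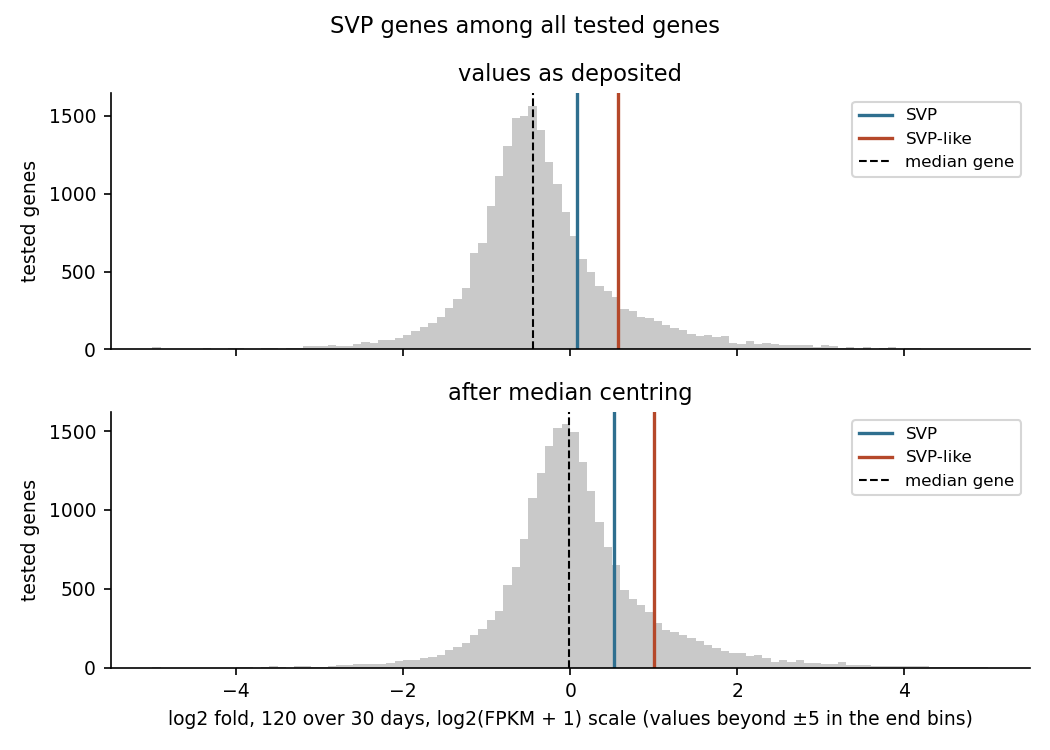
Number of tested genes by log2 fold of 120 over 30 days, for the values as deposited (top) and after median centring (bottom), with SVP in blue, SVP-like in red and the median gene dashed. Both genes lie to the right of the median gene, SVP at 0.09 and SVP-like at 0.57 for the values as deposited.

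SVP and SVP-like differed in which libraries were high and low. Summed over both genes, the level was 85.14, 85.51 and 83.51 FPKM in 120-day replicates 1, 2 and 3, and 62.38, 71.03 and 70.76 FPKM in 30-day replicates 1, 2 and 3. All 120-day sums were above all 30-day sums, a difference of 0.32 on the log2 scale (exact 2-sided permutation test, p = 0.1, the smallest that 3 against 3 libraries allow; adjusted over the 2 exact tests made, p = 0.2). How reads common to both genes were assigned is not known, and their part in these levels was not tested. Scaled by the median gene of each library, the log2 difference of the sums was 0.80 (exact permutation p = 0.1).

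The balance between the genes was then compared within each library, where scaling has no effect. SVP-like was at 1.29, 0.961 and 1.18 times the level of SVP in 120-day replicates 1, 2 and 3, and at 0.769, 0.562 and 1.20 times its level in 30-day replicates 1, 2 and 3. SVP-like was thus the higher of the pair in 2 of 3 libraries at 120 days and in 1 of 3 at 30 days. The ages overlapped, through 30-day replicate 3, and the difference of 0.50 in the log2 ratio did not pass (exact 2-sided permutation test, p = 0.3; adjusted over both tests, p = 0.3). That SVP-like changed more with age than SVP was therefore not shown, although SVP-like alone passed its own test. Without 30-day replicate 3 the log2 ratio differed by 0.79 between the ages (exact permutation p = 0.2), and without 30-day replicate 2 by 0.24 (exact permutation p = 0.6). SVP-like made up 56.4%, 49.0% and 54.1% of the summed level in 120-day replicates 1, 2 and 3, and 43.5%, 36.0% and 54.5% in 30-day replicates 1, 2 and 3.

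Both genes were abundant in leaves. SVP had a higher mean FPKM over the 6 libraries than 85.0% of the genes tested, and SVP-like a higher mean than 84.6%. Among 85 genes described as MADS-box or floral homeotic proteins, SVP ranked 2, 1 and 3 by FPKM in 120-day replicates 1, 2 and 3, and 3, 3 and 6 in 30-day replicates 1, 2 and 3. The ranks of SVP-like were 1, 2 and 1 at 120 days and 7, 6 and 4 at 30 days. SVP and SVP-like were the 2 MADS-box genes with the highest mean at 120 days. Together they held 21.4%, 22.9% and 23.3% of the FPKM of all 85 genes in 120-day replicates 1, 2 and 3, and 9.49%, 9.77% and 11.9% in 30-day replicates 1, 2 and 3. The total of the 85 genes was itself lower in the older leaves, at 397.72, 372.66 and 358.99 FPKM at 120 days, against 657.34, 727.3 and 592.45 FPKM at 30 days.

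The partners and targets of SVP known from Arabidopsis were followed in a list of 70 matched genes, in addition to SVP and SVP-like. Of these, 50 were high enough to test: 8 were higher at 120 days (16%, against 8.4% of all genes tested), 21 were lower (42%, against 37.6%) and 21 were not called. The median log2 fold of the 50 was −0.50, against −0.446 over all genes tested. The lower calls depended on the scale: after median centring 10 of the 50 were higher and 7 lower, and after quantile normalization the counts were also 10 and 7. They also fell to 12, 12 and 13 without 120-day replicates 1, 2 and 3, and to 14 without 30-day replicate 1. Over all genes tested the lower calls fell too, from 8052 to 5032, 3900, 3789 and 5299 in the same order. Without 120-day replicate 3, 5 list genes were higher, and the higher calls over all genes fell from 1801 to 1075. Without 30-day replicate 3, 8 were higher and 23 lower. The calls that held whichever library was left out are given with each role. No description matched FLM by that name, nor APETALA1, FKF1, TEMPRANILLO, SCHLAFMUTZE, SCHNARCHZAPFEN or LEAFY. AGL27, which was matched, is another name of FLM in Arabidopsis.

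The closest relative of SVP in Arabidopsis is AGL24, a MADS-box protein that promotes flowering. Of its 2 radish copies, AGL24 (Rsa10021770) had 20.79, 23.47 and 21.54 FPKM in 120-day replicates 1, 2 and 3, and 25.06, 10.8 and 35.83 FPKM in 30-day replicates 1, 2 and 3. The 120-day values sat inside the wide 30-day range (log2 fold 0.03, 95% interval −0.94 to 0.996; limma adjusted p = 0.958). AGL24-like (Rsa10036639) was low, at 2.39 ± 0.878 FPKM at 120 days against 4.33 ± 1.05 FPKM at 30 days (SD, n = 3 each), and did not pass (log2 fold −0.67, limma adjusted p = 0.0737). In every library the summed level of SVP and SVP-like was above that of both AGL24 copies together, which had 22.18 to 26.49 FPKM at 120 days and 16.33 to 39.41 FPKM at 30 days.

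Among the MADS-box partners, 5 of 9 tested were lower at 120 days and 0 were higher (37.6% and 8.4% of all genes tested), with 4 lower and 1 higher after median centring. Of the 5 lower calls, 4 held whichever library was left out. AGL27 (Rsa10016140) reached 1 FPKM in 30-day libraries only, and the FLC-like copy Rsa10024990 reached it in a single 120-day library, at 1.98 FPKM. The filter therefore kept both through their 30-day values. Without the filter, 5 of all 10 matched partners were lower and 0 higher, where 7582 of 30142 genes were lower and 1895 higher. The 3 FLC-like copies summed to 32.84, 42.42 and 31.89 FPKM in 120-day replicates 1, 2 and 3, and to 368.58, 488.82 and 239.52 FPKM in 30-day replicates 1, 2 and 3. All 120-day sums were below all 30-day sums, as was the case for 49.1% of single genes tested, and each copy was called lower, with log2 folds of −5.29 (Rsa10036313), −4.02 (Rsa10024990) and −2.30 (Rsa10013589). Set against this, SVP and SVP-like together stood at 2.59, 2.02 and 2.62 times the summed FLC level in 120-day replicates 1, 2 and 3, and at 0.169, 0.145 and 0.295 times it in 30-day replicates 1, 2 and 3. The pair was therefore above FLC in every 120-day library and below it in every 30-day library, and this ratio within a library is free of the scaling between libraries. Between the ages the log2 of the summed FPKM differed by −3.31 for the FLC copies and by 0.32 for the pair.

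The other partners stood below SVP and SVP-like in mean level. MAF5-like (Rsa10016139), of the FLC clade, had 3.18, 2.99 and 2.82 FPKM at 120 days and 13.05, 14.73 and 17.77 FPKM at 30 days. Its ages did not overlap, with 49.1% of genes tested likewise lower throughout (log2 fold −2.01, limma adjusted p = 0.00153). AGL27 (Rsa10016140), in Arabidopsis another name of FLM, a further relative of FLC, had at most 0.4 FPKM at 120 days and 1.05 to 4.1 FPKM at 30 days. Its call (log2 fold −1.35, limma adjusted p = 0.0297) was lost after median centring (0.127), after quantile normalization (0.0717) and in 3 of 6 fits without a library (at most 0.0960). The 4 copies of AGL8, known in Arabidopsis as FRUITFULL and a promoter of flowering, did not pass. The most abundant of them, Rsa10019670, had 24.42, 7.47 and 8.85 FPKM at 120 days and 22.91, 5.57 and 19 FPKM at 30 days. The copy Rsa10001156 had 12.6 ± 6.01 FPKM at 120 days against 5.30 ± 3.19 FPKM at 30 days, with no overlap, as for 11.6% of genes tested in that direction. It passed as higher after centring and after quantile normalization (limma adjusted p = 0.0724 as deposited, 0.0356 after centring). The copies Rsa10033648 and Rsa10014527 had log2 folds of 1.15 (limma adjusted p = 0.135) and 0.35 (limma adjusted p = 0.660).

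**Figure D3:**
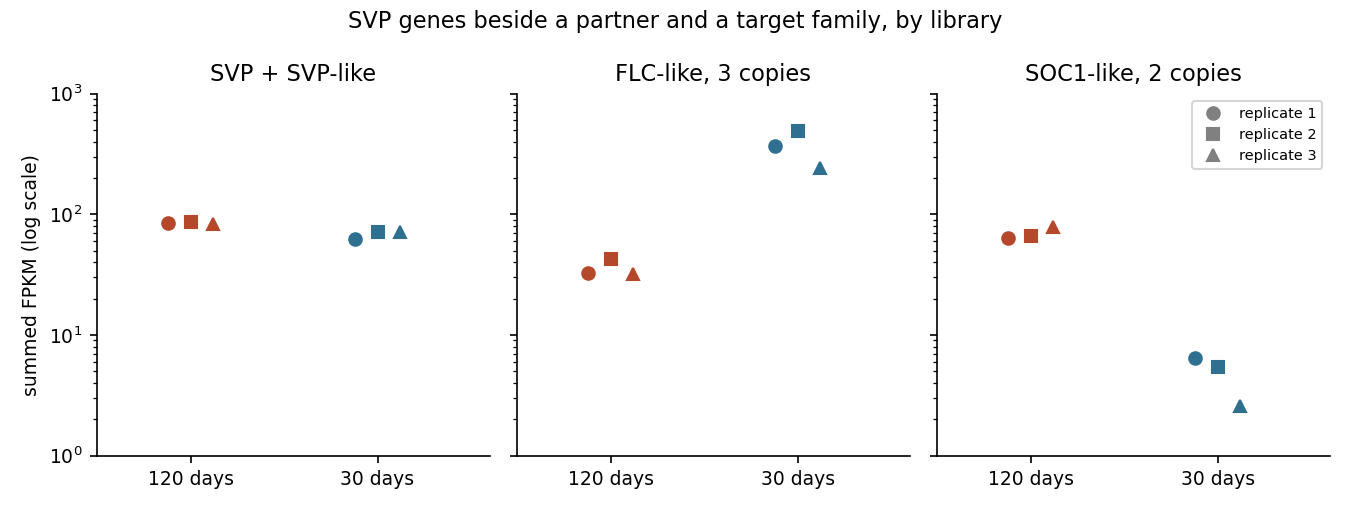
Summed FPKM on a log axis of SVP and SVP-like, of the 3 FLC-like copies and of the 2 SOC1-like copies, in the 3 libraries of 120-day leaves (red) and of 30-day leaves (blue); marker shapes are replicates. SVP and SVP-like stay between 62.38 and 85.51 FPKM while the FLC copies are lower and the SOC1 copies higher at 120 days.

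Genes of the families that SVP acts on in Arabidopsis held 6 of the 8 higher calls: of 8 tested, 6 were higher, 1 was lower and 1 was not called, where 8.4% of all genes tested were called higher and 37.6% lower. Their median log2 fold was 2.16. The families were matched whole, and 2 of the 6 are gibberellin 20 oxidases 1 and 3, not the member known as a target of SVP. Of the 6, the call held for 3 whichever library was left out, namely both SOC1 copies and an abscisic acid 8′-hydroxylase. The other 12 of the 20 matched target genes were too low to test. FT (Rsa10015765), gibberellin 20 oxidase 1 (Rsa10021849) and abscisic acid 8′-hydroxylase 3-like (Rsa10004401) reached 1 FPKM in 120-day libraries only, so the filter kept them through that age. SOC1 (Rsa10006202) and gibberellin 20 oxidase 3 (Rsa10020800) reached it in a single 30-day library each, at 1.35 and 1.62 FPKM. These genes, too, passed the filter through their 120-day values. Without the filter, 6 of all 20 were higher, 1 was lower and 13 were not called, with a median log2 fold of 0.06. Over all genes, 1895 of 30142 were then higher and 7582 lower. SOC1 had 2 copies, which summed to 64.08, 66.16 and 78.72 FPKM in 120-day replicates 1, 2 and 3, and to 6.48, 5.42 and 2.6 FPKM in 30-day replicates 1, 2 and 3. The ages were far apart, with log2 folds of 4.29 for Rsa10006202 (limma adjusted p = 0.00104) and 3.05 for Rsa10039427 (limma adjusted p = 0.00431). FT (Rsa10015765) had 20.11, 2.51 and 8.14 FPKM in 120-day replicates 1, 2 and 3, and was listed at 0.29, 0 and 0.59 FPKM in 30-day replicates 1, 2 and 3. Its 120-day values differed by several times among themselves but lay above all 30-day values, as for 11.6% of genes tested (log2 fold 2.79, limma adjusted p = 0.0144). Without 120-day replicate 3 the adjusted p was 0.0545. A further copy, FT-like (Rsa10033877), too low to test, had 0.57, 0 and 0.32 FPKM at 120 days and 6.5, 0 and 4.08 FPKM at 30 days. Summed over both copies, FT had 20.68, 2.51 and 8.46 FPKM at 120 days and 6.79, 0 and 4.67 FPKM at 30 days, and the ages overlapped.

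The other targets belong to hormone pathways. Gibberellin 20 oxidase makes precursors of active gibberellin, and its gene GA20ox2 is lowered by SVP in Arabidopsis. Both radish genes described as gibberellin 20 oxidase 2 were too low to test, with at most 0.25 FPKM at 120 days and 3.22 FPKM at 30 days (Rsa10003523), and at most 1.01 FPKM at 120 days and 2.03 FPKM at 30 days (Rsa10012733). Gibberellin 20 oxidase 3 (Rsa10020800) was higher, with 3.13, 4.44 and 5.51 FPKM at 120 days and 0.4, 1.62 and 0 FPKM at 30 days (log2 fold 1.77, limma adjusted p = 0.0128). Gibberellin 20 oxidase 1 (Rsa10021849) was also higher, with 2.37, 1.07 and 1.87 FPKM at 120 days and 0.62, 0.51 and 0.61 FPKM at 30 days (log2 fold 0.78, limma adjusted p = 0.0288). When each library was left out in turn, the call held in 4 of 6 fits for the first and in 2 of 6 for the second. The other copy of gibberellin 20 oxidase 3 (Rsa10004269) overlapped between the ages and did not pass (log2 fold 0.44, limma adjusted p = 0.599; −0.11 without 30-day replicate 3).

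Abscisic acid 8′-hydroxylases break down abscisic acid. Gene 3-like (Rsa10004401) had 11.43, 8.13 and 1.98 FPKM at 120 days and 0.23, 0.17 and 0.19 FPKM at 30 days (log2 fold 2.54, limma adjusted p = 0.0107). Gene 1 (Rsa10040801) went the other way, with 4.83, 1.5 and 1.87 FPKM at 120 days and 44.22, 6.45 and 84.63 FPKM at 30 days. The 30-day values spread widely, and its call (log2 fold −3.14, limma adjusted p = 0.0299) was lost after median centring (0.067) and held in 2 of 6 fits without a library. The 2 tested members of this enzyme family thus moved in opposite directions. After median centring 6 of the 8 targets were higher and 0 lower.

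Regulators of SVP, which in Arabidopsis set its transcript level, its protein level or its action, held no higher call: 11 of 19 tested were lower, against 37.6% of all genes tested, and 5 of the 11 held whichever library was left out. After median centring 1 of the 19 was lower, FCA (Rsa10018878), an RNA-binding protein of the autonomous pathway, with 5.73, 7.71 and 6.46 FPKM at 120 days and 14.02, 13.58 and 14.05 FPKM at 30 days (log2 fold −0.97, limma adjusted p = 0.005; 0.0474 after centring). FCA-like (Rsa10006367) had a log2 fold of −0.80 before centring and −0.36 after it. The HUA2 family was matched whole, as HUA2-LIKE or ENHANCER OF AG-4, and gave 5 tested genes. In Arabidopsis HUA2 itself promotes FLC and its relatives. Rsa10002343, Rsa10013484 and Rsa10029728 are described as HUA2-LIKE, not as HUA2, and were counted as regulators by family only. All 5 were called lower, as were 37.6% of all genes tested, and 0 were called after centring. Their log2 folds were −0.80 (Rsa10002343), −0.73 (HUA2-LIKE 1, Rsa10013484), −0.69 (Rsa10029728), −0.57 (Rsa10018380) and −0.54 (Rsa10019682). The calls of Rsa10002343 and Rsa10029728 held whichever library was left out. Of the 3 copies of MSI4, called FVE in Arabidopsis and acting on chromatin upstream of SVP there, 2 were called lower, with log2 folds of −0.78 (Rsa10025915) and −0.70 (Rsa10028837), and neither after centring. The call of Rsa10028837 was also lost without 30-day replicate 3 (limma adjusted p = 0.0750). The most abundant, Rsa10031295, had 15.29, 15.18 and 15.44 FPKM at 120 days and 18.92, 14.47 and 15.58 FPKM at 30 days, which overlapped (log2 fold −0.08, limma adjusted p = 0.666).

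Among the other regulators, 2 of 3 copies of SIZ1, a SUMO ligase, were called lower, as were 37.6% of all genes tested. They were Rsa10034288 (log2 fold −0.96) and Rsa10004113 (log2 fold −0.47), and neither was called after centring. The third, Rsa10022955, was the most abundant regulator, with 29.6 ± 7.27 FPKM at 120 days and 38.8 ± 9.72 FPKM at 30 days (SD, n = 3 each; limma adjusted p = 0.246). Of the clock genes that act on SVP in Arabidopsis, GIGANTEA and LHY stood apart in 30-day replicate 3. CCA1 (Rsa10009871) had 2.37, 4.34 and 3.53 FPKM at 120 days and 4.55, 3.69 and 6.32 FPKM at 30 days. It was not called with 30-day replicate 3 (limma adjusted p = 0.212) or without it (0.422). GIGANTEA (Rsa10001141) had 2.72, 5.78 and 3.95 FPKM at 120 days and 14.26, 15.4 and 1.35 FPKM at 30 days, so 30-day replicate 3 lay below the 120-day values and the other 30-day libraries above them. Its log2 fold was −0.75 with that library (limma adjusted p = 0.443) and −1.66 without it (0.0047). LHY (Rsa10012601), too low in most libraries to test, had at most 0.48 FPKM at 120 days and 3.93, 0.41 and 23.71 FPKM in 30-day replicates 1, 2 and 3. SVP-like was also at its 30-day maximum in that library and SVP at its minimum, and the part of the clock genes in these levels was not tested.

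Repressors of FT that act beside SVP in Arabidopsis, the AP2-like TOE and RAP2-7 proteins, went in both directions. Of 5 tested, 1 was higher and 3 were lower, where 8.4% of all genes tested were called higher and 37.6% lower. RAP2-7 (Rsa10028611) was near SVP-like in level, with 53.77, 48.62 and 41.42 FPKM at 120 days and 31.73, 27.65 and 23.18 FPKM at 30 days. Its 120-day values lay above all 30-day values, as for 11.6% of genes tested (log2 fold 0.78, limma adjusted p = 0.0142; 0.00485 after centring). The call held in 4 of 6 fits without a library (at most 0.0596). Of the other 4, TOE3 (Rsa10028792), RAP2-7-like (Rsa10013441) and TOE2 (Rsa10022714) were lower, with log2 folds of −1.44, −1.14 and −0.57, and TOE2 (Rsa10004102) did not pass. After centring TOE3 was the 1 of these called lower (log2 fold −1.003, limma adjusted p = 0.0259). The genes that act with FT and SOC1 gave 1 higher and 1 lower call among 7 tested, where 8.4% of all genes tested were called higher and 37.6% lower. The other 5, further copies of SPL3 and FD-like and the SPL9 copies, were not called. After median centring 2 of the 7 were higher and 1 lower, with the SPL3 copy Rsa10016970 the added higher call (limma adjusted p = 0.0302, 0.0525 as deposited). SPL3 (Rsa10038631), a promoter of flowering, had 4.22, 5.08 and 5 FPKM at 120 days and 0.81, 0.9 and 0.35 FPKM at 30 days (log2 fold 1.79, limma adjusted p = 0.00255). FD-like (Rsa10026866), the bZIP partner of FT, had 0.71, 0.14 and 0.61 FPKM at 120 days and 5.28, 3.88 and 4.68 FPKM at 30 days (log2 fold −1.93, limma adjusted p = 0.00274). This SPL3 copy reached 1 FPKM in 120-day libraries only and this FD-like gene in 30-day libraries only. The filter therefore kept each through the age at which it was high. Without the filter, 2 of all 10 matched genes of this role were higher and 2 lower. Over all genes, 1895 of 30142 were then higher and 7582 lower.

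**Figure D4:**
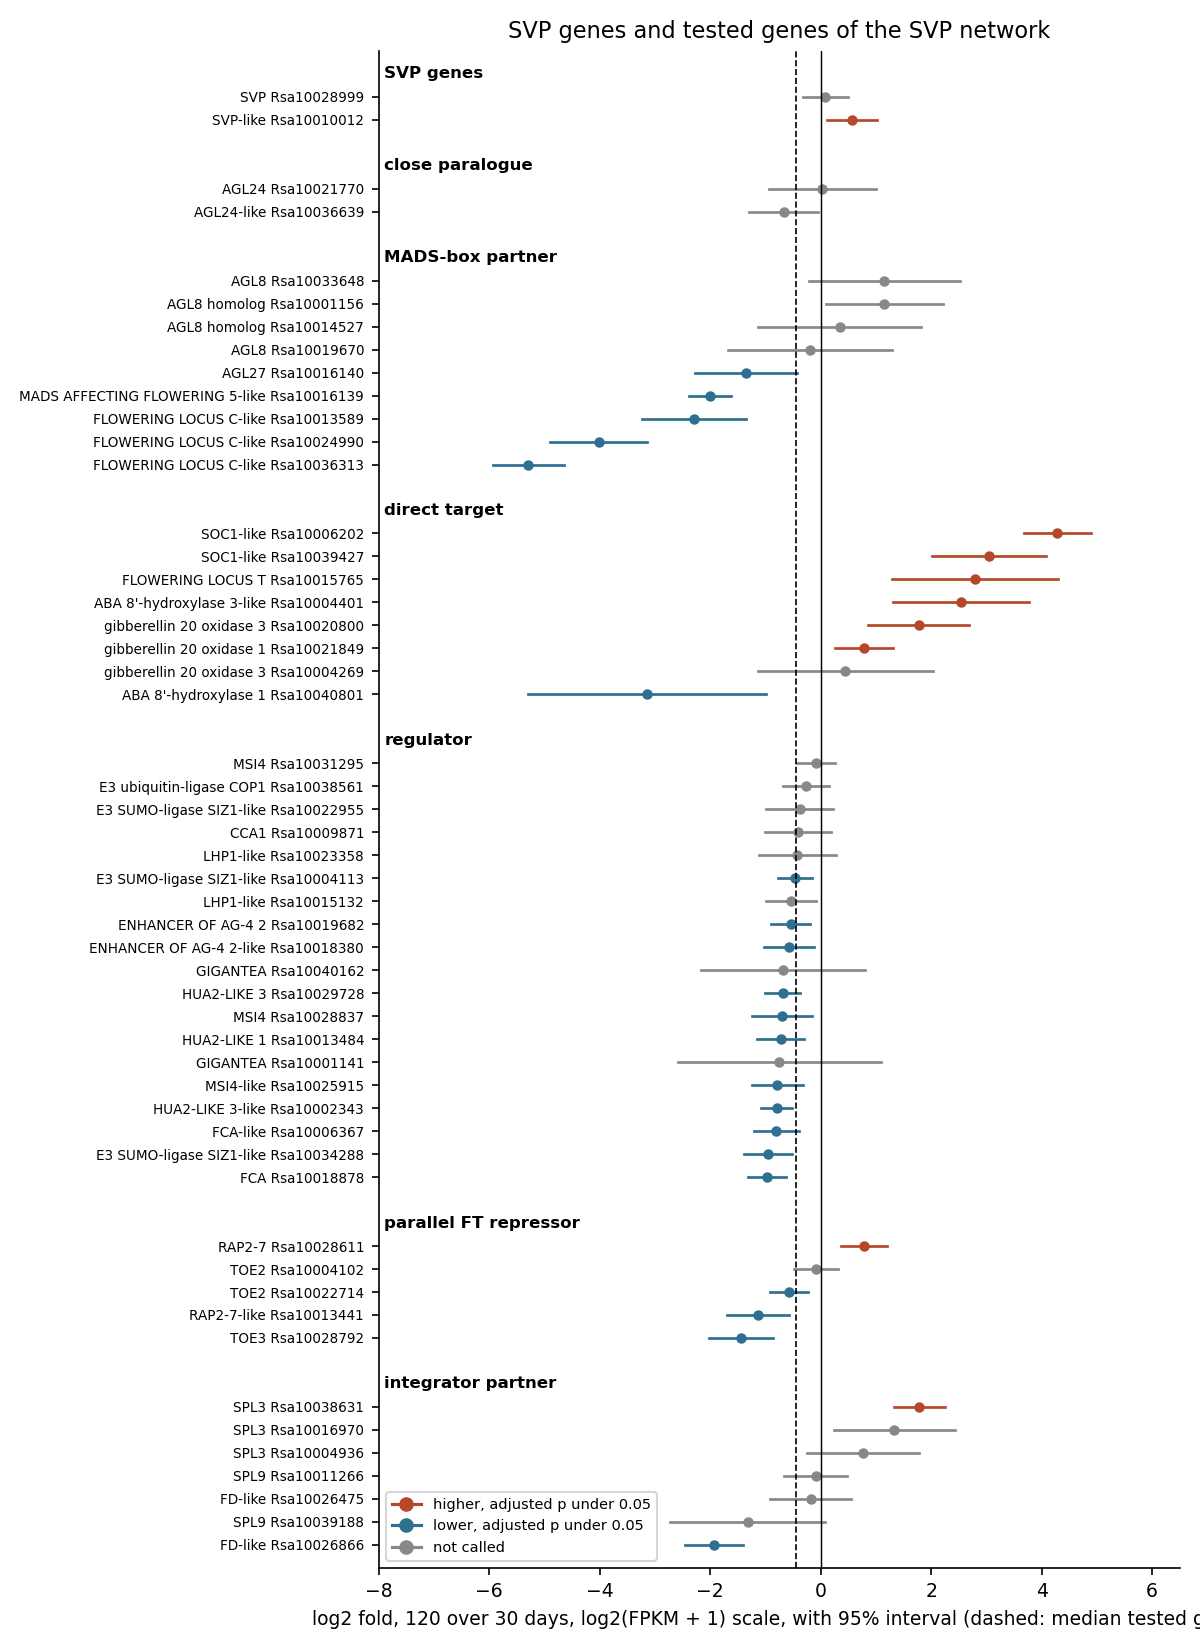
Log2 fold of 120 over 30 days with its 95% interval for SVP, SVP-like and the 50 tested genes of the list, grouped by their role in Arabidopsis; red and blue mark genes called higher and lower, grey those not called, and the dashed line the median gene tested. SVP at 0.09 and SVP-like at 0.57 lie between the FLC-like copies on the left and the SOC1-like copies on the right.

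The m6A data differed between the genes: the authors' list of differential peaks held 1 peak in SVP-like and 0 in SVP. Peaks there compare the immunoprecipitated libraries of the 2 ages, with no value per library, so the authors' log2 fold and p-value are described and not tested again. Of the genes tested for expression, 23.3% had a peak in the list, and of the 1847 with a mean of 30 to 50 FPKM, the range that holds SVP and SVP-like, 29.3% had one. A gene without a listed peak may carry m6A that did not differ, so nothing is said about whether SVP is methylated.

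The SVP-like peak ran on R04 from 33172264 to 33175636 on the minus strand, 3373 bases, and the authors' log2 fold of 120 over 30 days was 0.314 with a p-value of 7.94e-13 and an FDR of 1.26e-11. By that value m6A signal was higher at 120 days, the direction of 96.8% of the 5476 listed peaks. The fold was small for the list, since 15.3% of the peaks had a lower log2 fold and the median was 0.504, but 14.7% of the peaks had a smaller FDR. The sources used here do not say whether the authors' fold allows for the input level of the gene, itself higher at 120 days by a log2 fold of 0.57. The peak fold and the expression fold can therefore not be added or set against each other.

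The peak was long for the list. It began at the 3′ end of the gene and stopped 322 bases short of the 5′ end, covering 91.3% of the span, whereas the median peak had 435 bases and covered 19.0% of its gene. It was longer than 99.5% of the listed peaks, with 24 longer, and 4.55% of the peaks covered at least 90% of their gene. The deposited annotation calls it a 3′ UTR peak, as it does 34.5% of peaks, although the interval takes in most of the gene. Introns within it were not separated, since no gene structure was used here. The position of the methylated bases within the interval is thus not resolved.

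**Figure D5:**
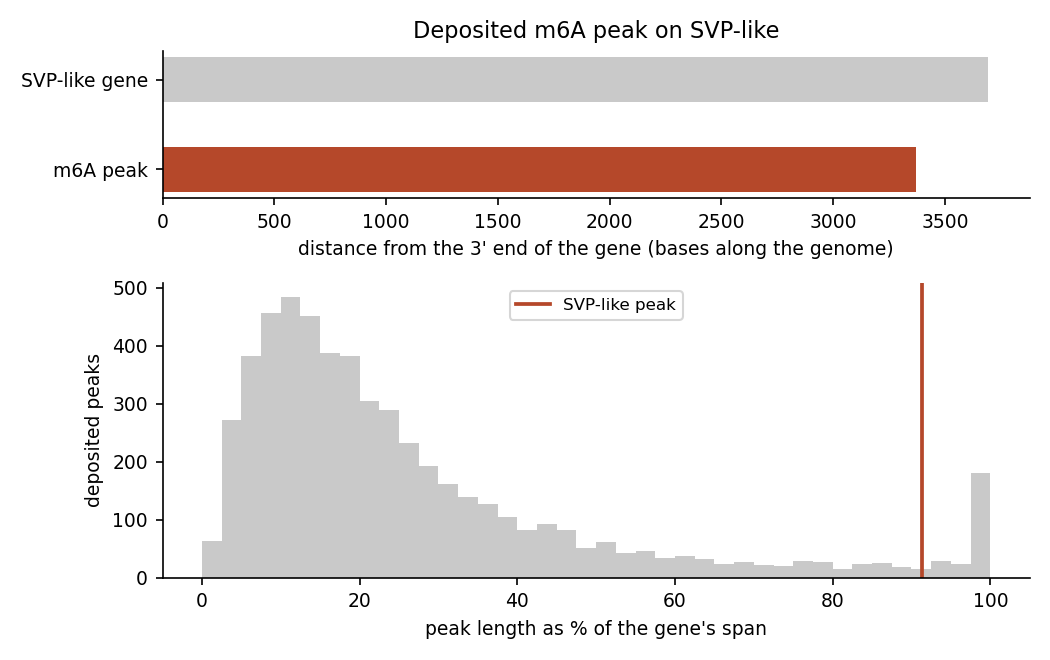
Top, span of the SVP-like gene (grey) and of its deposited differential m6A peak (red) by distance in bases from the 3′ end of the gene; bottom, number of deposited peaks by length as a percentage of the span of their gene, with the SVP-like peak in red. The peak covers 91.3% of the gene, against a median of 19.0%.

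In the list of partners, targets and regulators, 6 of the 50 tested genes (12%) had peaks, against 23.3% of all genes tested. There were 7 in all, each higher at 120 days by the authors' fold, as were 96.8% of all listed peaks. MAF5-like (Rsa10016139) carried the largest log2 fold of these, 0.836, in a 1422-base peak at the 3′ end, while its transcript was lower. HUA2-LIKE 3 (Rsa10029728) had 2 peaks, at 0.352 and 0.472. SIZ1-like (Rsa10034288), TOE2 (Rsa10022714), MSI4 (Rsa10031295) and MSI4-like (Rsa10025915) had 1 each, at 0.626, 0.534, 0.265 and 0.636. Of the 7 genes with peaks once SVP-like is counted, SVP-like was the 1 whose transcript was called higher. Of the rest, 5 were called lower and MSI4 was not called, where 8.4% of all genes tested were called higher and 37.6% lower. The lower calls depended on the scale. After median centring MAF5-like was still called lower, while HUA2-LIKE 3, SIZ1-like, TOE2 and MSI4-like were not called. None of the FLC-like, SOC1-like, FT or AGL24 copies had a listed peak.

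The places of both genes on the chromosome resembled each other. Directly downstream of each, on the same strand, lay a gene described as protein NETWORKED 2D-like, a family that in Arabidopsis links actin to membranes. It was 3095 bases from SVP (Rsa10029000) and 2268 bases from SVP-like (Rsa10010013). Both of these neighbours were too low to test: Rsa10029000 had 0.3, 0.26 and 0.26 FPKM at 120 days and 0.49, 0.24 and 0.66 FPKM at 30 days, and Rsa10010013 had 0.69, 0.57 and 0.28 FPKM at 120 days and 1.5, 0.81 and 1.34 FPKM at 30 days. On the other side, SVP lay 3360 bases from GPI ethanolamine phosphate transferase 2 (Rsa10028998), on the opposite strand, with 2.31, 1.97 and 1.58 FPKM at 120 days and 2.92, 2.16 and 2.54 FPKM at 30 days (log2 fold −0.26, limma adjusted p = 0.245). SVP-like lay 5963 bases from protein KINKY POLLEN (Rsa10010011), also on the opposite strand, which had 0.15, 0.15 and 0.21 FPKM at 120 days and 1.28, 0.71 and 0.2 FPKM at 30 days. None of these neighbours came near the level of SVP or SVP-like, and none overlapped with them.

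The genes whose pattern over the 6 input libraries was most like each gene were different for SVP and SVP-like. As a description, Pearson's r of log2(FPKM + 1) was taken over 6 libraries against 15665 genes with an informative description and a mean of at least 1 FPKM. For SVP, the 5 nearest were chaperone protein dnaJ 11, chloroplastic-like (Rsa10037241, 0.985), probable carboxylesterase 12 (Rsa10010533, 0.979), a V-type proton ATPase catalytic subunit A-like gene (Rsa10012597, 0.974), gibberellin 20 oxidase 3 (Rsa10004269, 0.964) and EXORDIUM-like 3 (Rsa10012741, 0.962). None of these was called, and like SVP all 5 were highest in 30-day replicate 2 and lowest in 30-day replicate 3. For SVP-like, they were heavy metal-associated isoprenylated plant protein 3-like (Rsa10008802, 0.994), motile sperm domain-containing protein 2 (Rsa10022310, 0.992), a putative F-box/kelch-repeat gene (Rsa10026278, 0.992), the sugar transporter SWEET2 (Rsa10032228, 0.989) and serine hydroxymethyltransferase 7 (Rsa10008037, 0.987). The first 4 were called higher at 120 days and the fifth was not (limma adjusted p = 0.0561). The level of SWEET2 was 66.05, 33.81 and 41.23 FPKM at 120 days and 11.31, 8.25 and 28.69 FPKM at 30 days, with 30-day replicate 3 the highest of its age, as for SVP-like. Between SVP and SVP-like themselves r was −0.21 over the 6 libraries. With 6 libraries that share 2 ages and this many genes compared, high values of r carry no test.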

How the data were processed

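The authors deposited FPKM per gene for the 6 input libraries and their own fold change, log2 fold, p-value and q-value per gene, per the file headers. Each differential m6A peak came with the authors' own log2 fold (120 over 30 days), FDR and p-value, per the file headers; no value per immunoprecipitated library was used. The submitters' processing notes name fastp, FastQC, HISAT2, StringTie, HOMER and edgeR, without versions or roles. The genome build, the peak caller, the strand setting and the treatment of reads shared between near-identical copies are not given in the sources used here, which leaves the split of FPKM between copies of a gene family uncertain. Low FPKM values followed no common step, so read depth is unknown and no counting interval is given. A value listed at 0 may be a failed estimate. The deposited peak starts were taken as counted from 0, and 1 was added: 1807 peaks start 1 base before the start of their gene, and 0 at it.

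Tests used limma 3.58.1 (R 4.3.3), eBayes with a variance trend, on log2(FPKM + 1), over the 21435 genes with at least 1 FPKM in at least 3 of the 6 input libraries. The p-values were 2-sided, adjusted by Benjamini-Hochberg over all genes tested, with a threshold of 0.05. This scale understates the change of low genes. The script was tested on simulated data. Sums and ratios of SVP and SVP-like were compared by exact permutation. Alternatives were another pseudocount, other filters, median centring, quantile normalization, no variance trend, a replicate block and leaving out each library; when a library was left out, the genes tested were kept the same. A table that joins peaks to expression repeats the other tables and was not used.

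The genes and lists were chosen with earlier results of these data known. The list of partners, targets and regulators was matched in the gene descriptions, HUA2 also as ENHANCER OF AG-4 and TOE1 as RAP2-7; descriptions that only mention FLC were left out. Named were all tested relatives, MADS-box partners and targets, in other roles the called genes and otherwise the most abundant, the 5 nearest patterns and the neighbouring genes. Genes named outside this rule (LHY, FT-like, the gibberellin 20 oxidase 2 genes, and members of a role that were not called) were chosen after their values were seen. So was the phloem marker called higher.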

Additional observations from a re-analysis of the deposited data

How the results depend on the processing

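SVP stayed uncalled under every alternative run. Its log2 fold was −0.016 without 30-day replicate 3, a reversed sign near 0, and ran from −0.016 to 0.23 when each library was left out. SVP-like was positive under every alternative run, with a log2 fold of 0.46 to 0.75 when each library was left out, but lost its call without the filter, without the variance trend and with a replicate block (log2 fold 0.57 in each; limma adjusted p = 0.0622 with the block). Over all alternatives its adjusted p ran from 0.00541 to 0.132. The replicate numbers only name the libraries: deviations from the age means correlated at 0.272, 0.142 and 0.0814 between libraries of the same number, each higher than with any other number, a hint from the data and not from the design. With the block, 1733 of all genes tested were higher and 6875 lower, and 7 of the 19 regulators in the list were lower; the log2 ratio of SVP-like to SVP had p = 0.5 by exact permutation within pairs.

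Counts moved most. List genes called higher were 5 to 10 when each library was left out. Those called lower were 7 after median centring, 7 after quantile normalization and 12 to 23 when each library was left out. Over all genes, 2968 were higher and 2188 lower after median centring, 2799 were lower after quantile normalization, and leaving out each library gave 954 to 2197 higher and 3789 to 9166 lower. The difference in the log2 ratio of SVP-like to SVP was 0.24 to 0.79, and that of their sum 0.26 to 0.35, when each library was left out. The cause of these moves was not tested. A stricter peak threshold (FDR of 0.01) kept the SVP-like peak. Without read depth, the counting error behind single FPKM values cannot be given, and 3 libraries per age limit the exact tests to p = 0.1.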

Other observations

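Other MADS-box genes of the leaf, chosen here after their values were seen, gave levels to set beside SVP and SVP-like. AGL42-like (Rsa10033610) averaged 17.69 FPKM at 120 days and 0.0367 FPKM at 30 days, and AGL42 (Rsa10019613) averaged 22.0 FPKM at 120 days and 9.89 FPKM at 30 days; in Arabidopsis AGL42 is a relative of SOC1. AGL14 (Rsa10006293) had 14.8 FPKM at 120 days and 39.9 FPKM at 30 days, a level at 30 days close to that of SVP. AGL3 (Rsa10020725), known in Arabidopsis as SEPALLATA4 and not matched by the flower markers under that name, averaged 6.07 FPKM at 120 days and 0.09 FPKM at 30 days.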
